A study of Sus scrofa with 16 samples.

Results

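Cadherins are calcium-dependent adhesion proteins that join neighbouring cells by binding cadherins on the opposite surface. The tail of a classical cadherin holds p120-catenin near the membrane and beta-catenin further along, and alpha-catenin ties that complex to the actin cytoskeleton. Mesenchymal cells such as fibroblasts carry N-cadherin and cadherin-11 in place of the E-cadherin of epithelia, and beta-catenin also acts in the nucleus as a coactivator in WNT signalling. Levels are given here for 7 genes, taken by name from the count table of 29576 entries: the cadherin genes CDH2, CDH6, CDH11 and CDH13 and the catenin genes CTNNA1, CTNNB1 and CTNND1. All 7 passed the filter on low counts, and 14530 genes were tested in all. CDH2 is a type I and CDH6 and CDH11 are type II classical cadherins, while CDH13 (T-cadherin) is held by a lipid anchor, has no tail and does not bind catenins, so the term classical does not cover it.

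The data were polyA RNA counts of interstitial cells from the aortic valve leaflets of pigs aged 5 to 6 months, a resident population that resembles fibroblasts. The 4 groups were female cells on tissue culture plastic, female cells on a soft hydrogel, male cells on plastic and male cells on the hydrogel, with n = 4 biological replicates each. The gels were of PEG-norbornene with a modulus of about 5.8 kPa, and every culture was held for 48 hours in Media 199 with 1% fetal bovine serum and antibiotics. The submitters regarded cells on plastic as myofibroblasts and cells on gel as quiescent fibroblasts. The labels do not say whether a replicate was 1 animal or a pool, so p-values measure the spread between these cultures.

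Library totals ran from 16897547 counts in male gel 2 to 27436151 in female gel 3. Levels in CPM are counts scaled to a common effective library total, which is the library total multiplied by its TMM scaling factor. Valve interstitial and fibroblast markers (10 genes, among them VIM and COL1A1) summed to between 38960 and 54787 CPM in every library. Epithelial markers (8 genes, CDH1 included) summed to at most 0.58 CPM. Of those 10 fibroblast markers, 1 (COL3A1) rose and 4 fell on plastic in female cells. In male cells 3 (COL3A1, COL1A1 and THY1) rose and 3 fell. The male count of 3 higher was 0 without male plastic 2, and the female count of 1 higher was 2 without female gel 2. PDGFRA, a growth factor receptor of fibroblasts, fell by 2.38 in female and by 2.44 in male cells on the log2 scale, and the matrix proteoglycan genes DCN and LUM by 1.41 and 1.42 in female and by 1.33 and 1.62 in male cells. Smooth muscle and pericyte markers rose on plastic in both sexes, 9 of 9 tested. Over all tested genes 12.7% were higher and 11.3% lower on plastic in female cells, and 12.9% and 12.9% in male cells. Endothelial markers (12 genes, none at 0 in all libraries) summed to 208 to 567 CPM in female plastic, 173 to 275 in female gel, 197 to 328 in male plastic and 151 to 261 in male gel. Of the leukocyte markers (8 genes, CD3E at 0 throughout) the sum was 38.6 CPM in female plastic 1 and 6.04 to 17.6 CPM in the other libraries. Neural crest, Schwann and melanocyte markers (8 genes, CDH19 at 0) summed to 10.1 to 19.2 CPM. Cardiac muscle markers (5 of 6 in the table, TNNT2 and NPPA at 0) summed to at most 2.53 CPM.

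The first question was how the genes differed between plastic and gel. In female cells 4 of the 7 rose on plastic, namely CDH2, CDH11, CTNNA1 and CTNND1, and 0 fell, where 23.9% of all tested genes were called in either direction, 12.7% were higher and 11.3% lower. The same 4 had plastic and gel groups that did not overlap, as did 27.7% of all tested genes. In male cells 3 of the 7 rose, namely CDH2, CTNNA1 and CTNND1, and 0 fell, against a background of 25.8% called in either direction, 12.9% higher and 12.9% lower. The same 3 had groups that did not overlap, against 28.9% of all tested genes. CDH2 changed about 4-fold and the 2 catenins by less than 1.4-fold. CDH6, CDH13 and CTNNB1 were called in neither sex. These calls are from a fit without pairing of the cultures. With the replicate number as a block, CDH13 was called in male cells (0.38, adjusted p = 0.0254). The female call of CTNNA1 was then lost (0.22, adjusted p = 0.057). A call is an adjusted p under 0.05 by edgeR's quasi-likelihood test, with the Benjamini-Hochberg adjustment made over the 14530 genes. The median log2 change of the 7 was 0.42 in female and 0.36 in male cells, beside -0.04 and -0.03 over all tested genes.

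**Figure D1:**
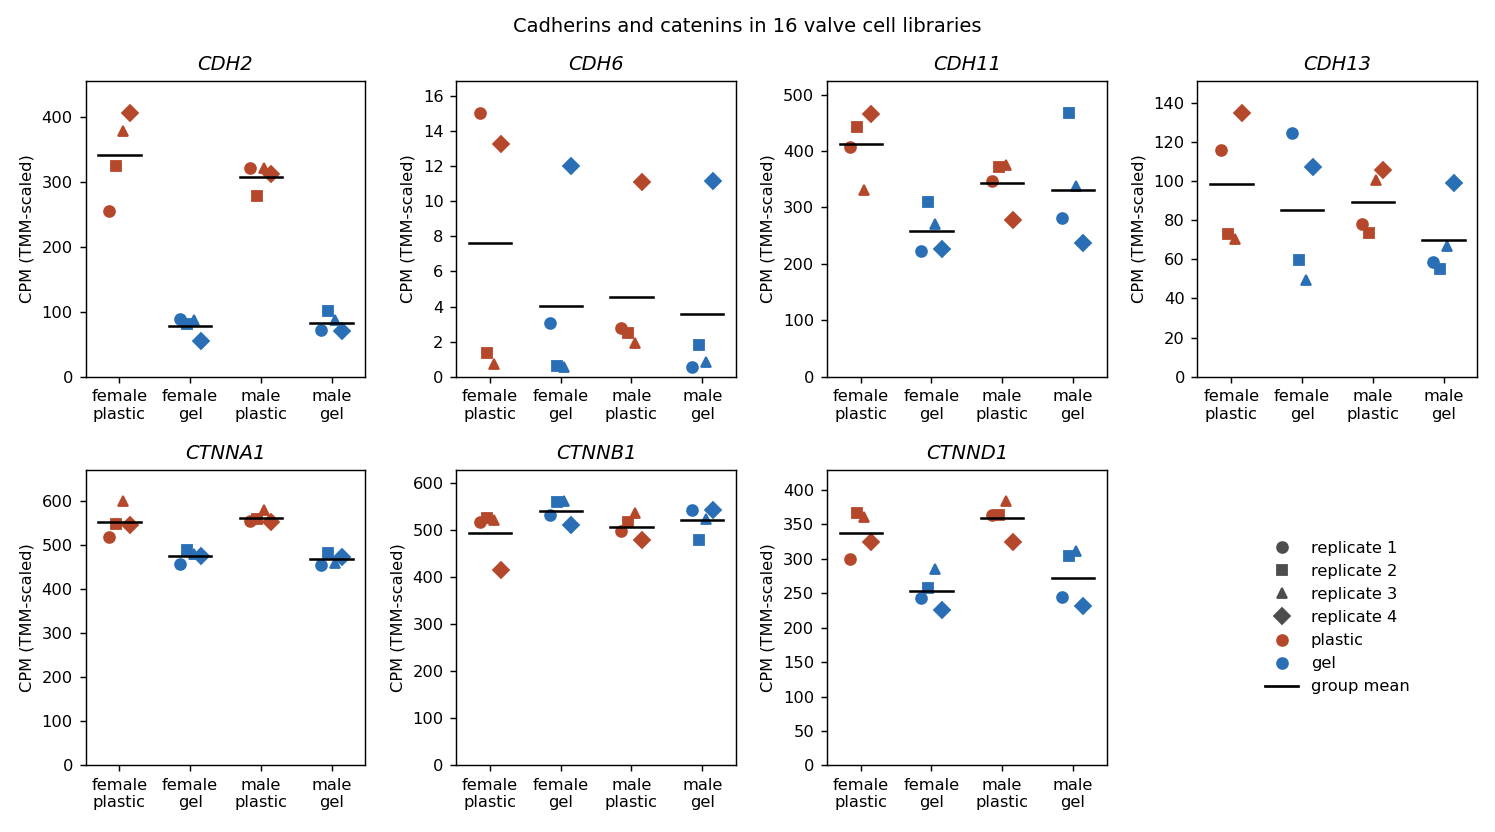
CPM, scaled by TMM, of each gene in the 16 libraries on linear axes that start at 0, with plastic in red, gel in blue, a marker shape per replicate number and a bar at each group mean (n = 4). The plastic libraries lie above all gel libraries of the same sex for CDH2, CTNNA1 and CTNND1 in both sexes and for CDH11 in female cells, while CDH6 spreads within every group.

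CDH2 encodes N-cadherin, the type I cadherin of fibroblasts, muscle and neurons (chromosome 6, 112396713 to 112629073, Sscrofa11.1). It had 255, 325, 378 and 407 CPM in the female plastic libraries 1 to 4, against 88.4, 81.9, 86.8 and 54.6 CPM in female gel. In male cells it had 321, 278, 321 and 312 CPM on plastic, against 72.3, 101, 87.6 and 69.8 CPM on gel. Every plastic library lay more than 2-fold above every gel library, and the plastic over gel ratio within a culture number ran from 2.76 in male 2 to 7.45 in female 4. N-cadherin transcripts rose on plastic by 2.13 on the log2 scale in female cells (SE 0.17, adjusted p = 3.19e-07) and by 1.90 in male cells (SE 0.17, adjusted p = 9.9e-07). Group means were 341 ± 66.6 in female plastic, 308 ± 20.3 in male plastic, 82.6 ± 14.4 in male gel and 77.9 ± 15.8 CPM in female gel (SD, n = 4 each). In this order the 2 plastic groups did not differ beyond their spread, nor did the 2 gel groups. In bulk RNA, fewer cells of a type and less RNA per cell cannot be told apart, and the smooth muscle and pericyte markers that rose with CDH2 (sum 16328 to 31619 CPM in female plastic, 3969 to 8731 in female gel, 23408 to 29096 in male plastic and 4240 to 7562 in male gel) include the contractile genes by which myofibroblasts are known. The fibroblast markers PDGFRA, DCN and LUM fell on plastic in the same libraries. Of the same list, COL3A1 rose in both sexes, and COL1A1 and THY1 were called higher in male cells. With 1 of the 16 libraries left out at a time, the male call was lost in 12 fits for COL1A1 and in 8 for THY1. With the replicate block both stayed called in male cells. THY1 was then called higher in female cells too (0.66, adjusted p = 0.000223), and COL1A1 was not (0.38, adjusted p = 0.0527). The median sum of all 10 fibroblast markers was 45820 CPM in female plastic against 40833 in female gel. In male cells it was 50943 CPM on plastic against 44182 on gel. The part of these markers in the result was not tested.

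CDH11 encodes cadherin-11, also called OB-cadherin, a type II cadherin of mesenchyme and bone-forming cells that is known from valve calcification research (chromosome 6, 25782746 to 25933753). In female cells it had 407, 443, 330 and 466 CPM on plastic, against 222, 310, 271 and 226 CPM on gel. In male cells it had 346, 372, 376 and 277 CPM on plastic, against 282, 468, 338 and 237 CPM on gel. In CPM the female groups did not overlap, whereas the male gel libraries enclosed the whole male plastic range. By counts over library totals alone, without the TMM factors, the female groups overlapped. In female cells CDH11 rose by 0.68 on the log2 scale (SE 0.18, adjusted p = 0.0127), with plastic above gel at 4 of 4 culture numbers. In male cells the difference was 0.05 (SE 0.18, 95% interval -0.34 to 0.43, adjusted p = 0.875), with plastic above gel at 3 of 4 numbers. Male gel 2, the shallowest library, held the highest CDH11 level of the 16, level with female plastic 4.

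The change of CDH11 in female minus that in male cells was 0.63 on the log2 scale (SE 0.26, 95% interval 0.08 to 1.17). Its unadjusted p by edgeR was 0.0267 and its adjusted p 0.767, so a difference between the sexes was not called. Without male gel 2 the difference was 0.41, and without male 4, female 1 and female 4 on both surfaces it was also 0.41. Without those same cultures the female change was 0.43 (adjusted p = 0.245, with 2 female cultures left per surface). The ratio of plastic to gel was 1.83 in female 1 and 2.06 in female 4, and 1.43 and 1.22 in female 2 and 3. Group means of CDH11 were 412 ± 59.4 in female plastic, 343 ± 45.6 in male plastic, 331 ± 100 in male gel and 257 ± 41.4 CPM in female gel (SD, n = 4 each), and of the comparisons tested only female plastic with female gel gave a call.

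Counts of CDH2 relative to those of CDH11 were higher on plastic in both sexes, given here as a description with no test. CPM is not divided by transcript length, so this ratio can be compared between libraries but does not say which cadherin is the more abundant. The CDH2 count was 0.63, 0.73, 1.14 and 0.87 times the CDH11 count in female plastic 1 to 4, against 0.40, 0.26, 0.32 and 0.24 in female gel. It was 0.93, 0.75, 0.85 and 1.13 times in male plastic, against 0.26, 0.22, 0.26 and 0.29 in male gel. The 8 plastic ratios lay above the 8 gel ratios, and the means were 0.844 ± 0.224 in female plastic, 0.306 ± 0.0697 in female gel, 0.914 ± 0.159 in male plastic and 0.256 ± 0.0326 in male gel (SD, n = 4 each).

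**Figure D2:**
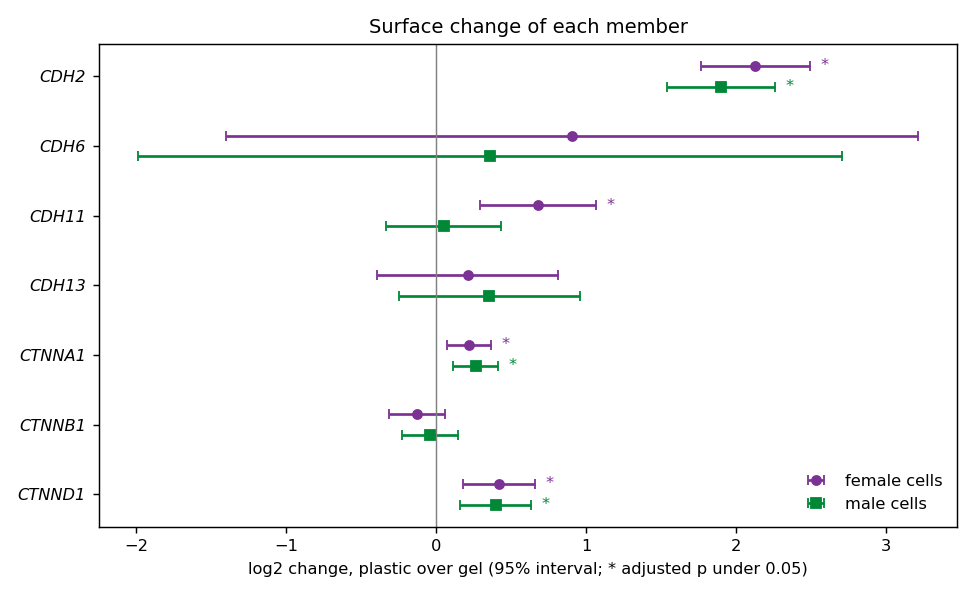
Log2 change of plastic over gel for each gene in female (circles) and male cells (squares), from edgeR without the replicate block. Each has a 95% interval, with a star at an adjusted p under 0.05. CDH2 stands at 2.13 in female and 1.90 in male cells, CDH11 was called in female but not in male cells without a called difference between them, and the intervals of CDH6 are wide.

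CDH6 encodes K-cadherin, a type II cadherin first known from kidney (chromosome 16, 17531862 to 17660081). It was scarce in most libraries: 15.1, 1.36, 0.70 and 13.3 CPM in female plastic 1 to 4, against 3.06, 0.59, 0.54 and 11.99 CPM in female gel. In male cells it had 2.76, 2.49, 1.91 and 11.12 CPM on plastic, against 0.56, 1.81, 0.86 and 11.2 CPM on gel. The libraries above 3 CPM were those of female 1, female 4 and male 4 on both surfaces, and the other 10 libraries lay between 0.54 and 2.76 CPM. The highest library was 5.82 to 22.1 times the lowest within a group, and its within-group SD of 1.84 on the log2 scale was at the 99.9th percentile of tested genes, whose median was 0.26. The surface difference was 0.91 in female cells (SE 1.09, 95% interval -1.40 to 3.22) and 0.36 in male cells (SE 1.11, 95% interval -1.99 to 2.71), and neither was called. With the replicate number as a block, which takes out the differences between cultures, it was 1.05 (adjusted p = 0.0795) and 0.82 (adjusted p = 0.145), again not called. Raw counts went down to 15 in female gel 2, so the low libraries carry larger counting error.

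CDH13 encodes T-cadherin, known as a receptor of adiponectin and low-density lipoprotein in vessel walls (chromosome 6, 4809752 to 5832188). It had 116, 73.2, 70.4 and 135 CPM in female plastic 1 to 4, against 125, 59.5, 49.6 and 107 CPM in female gel. In male cells it had 77.8, 73.5, 101 and 106 CPM on plastic, against 58.8, 55.2, 66.9 and 98.8 CPM on gel. On gel, female 1, female 4 and male 4 were again the highest of the 8 libraries, and on plastic they were too, with male 3 close behind male 4. The surface difference was 0.21 in female cells (SE 0.28, 95% interval -0.39 to 0.81, adjusted p = 0.639) and 0.36 in male cells (SE 0.29, 95% interval -0.25 to 0.96, adjusted p = 0.39). With the replicate block the male difference of 0.38 was called (adjusted p = 0.0254; plastic higher at 4 of 4 numbers) and the female one of 0.26 was not (adjusted p = 0.115; 3 of 4). Without male 4, female 1 and female 4 the male difference was 0.49 and was also called (adjusted p = 0.0287).

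CDH5 and the summed endothelial markers were highest in the same cultures as these 2 cadherins, while VWF was not. CDH5, which encodes VE-cadherin of endothelial junctions, had 174, 32.1, 24.1 and 88.8 CPM in female plastic 1 to 4, against 20.3, 9.45, 6.76 and 47.1 CPM in female gel. It had 23.5, 21.0, 42.3 and 87.9 CPM in male plastic, against 7.51, 4.97, 11.2 and 44.8 CPM in male gel. Female 1, female 4 and male 4 were the highest on each surface. Their summed level of the 12 endothelial markers was 567, 436 and 328 CPM on plastic, where the other 5 libraries had 197 to 273. On gel it was 242, 275 and 261 CPM, where the others had 151 to 204. The smooth muscle and pericyte sum was lowest in the same cultures. It was 16328, 21652 and 23408 CPM on plastic, where the others had 27736 to 31619. On gel it was 4244, 3969 and 4240 CPM, where the others had 6107 to 8731. The defining markers VWF and KDR were low in every library, at 0.13 to 4.17 CPM and 0 to 2.22 CPM. VWF was highest in female gel 2 (4.17 CPM). It was lowest in female 4 and male 4 on each surface, at 0.25 and 0.25 CPM on plastic and 0.22 and 0.13 CPM on gel. KDR was highest in female 1, female 4 and male 4 on gel (1.01, 0.83 and 1.66 CPM). On plastic KDR was highest in female 1 and female 4 (2.22 and 0.93 CPM), with male 4 at 0.34 CPM. PECAM1 and ERG, both abundant in all libraries, made up much of the sum. PECAM1 was highest in female 1, female 4 and male 4 on each surface. Unlike CDH5, it was higher on gel than on plastic in every culture except female 1 (124 CPM on plastic, 81.3 on gel). Of the 12 markers, 3 rose on plastic in female and 2 in male cells and 0 fell, with 5 and 6 higher under the replicate block. Without the block, 12.7% of all tested genes were higher in female and 12.9% in male cells. The male count of 2 was 1 without male plastic 3 or 4 or male gel 1 or 3, was 3 without male gel 4 or female plastic 1 or 4, and was 4 without female 1, female 4 and male 4. The part of endothelial cells in the CDH6 and CDH13 levels was not tested. CDH5 itself differed between surfaces by 1.93 in female cells (SE 0.78, adjusted p = 0.0853) and 1.35 in male cells (SE 0.77, adjusted p = 0.216). Both were called with the replicate block (1.90, adjusted p = 0.000434, and 1.62, adjusted p = 0.00117), and without those 3 cultures (1.81, adjusted p = 0.0129, and 1.87, adjusted p = 0.00234). The female difference was also called without female gel 4 (2.71) or male gel 4 (1.93), and the male one without male gel 4 (2.46).

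**Figure D3:**
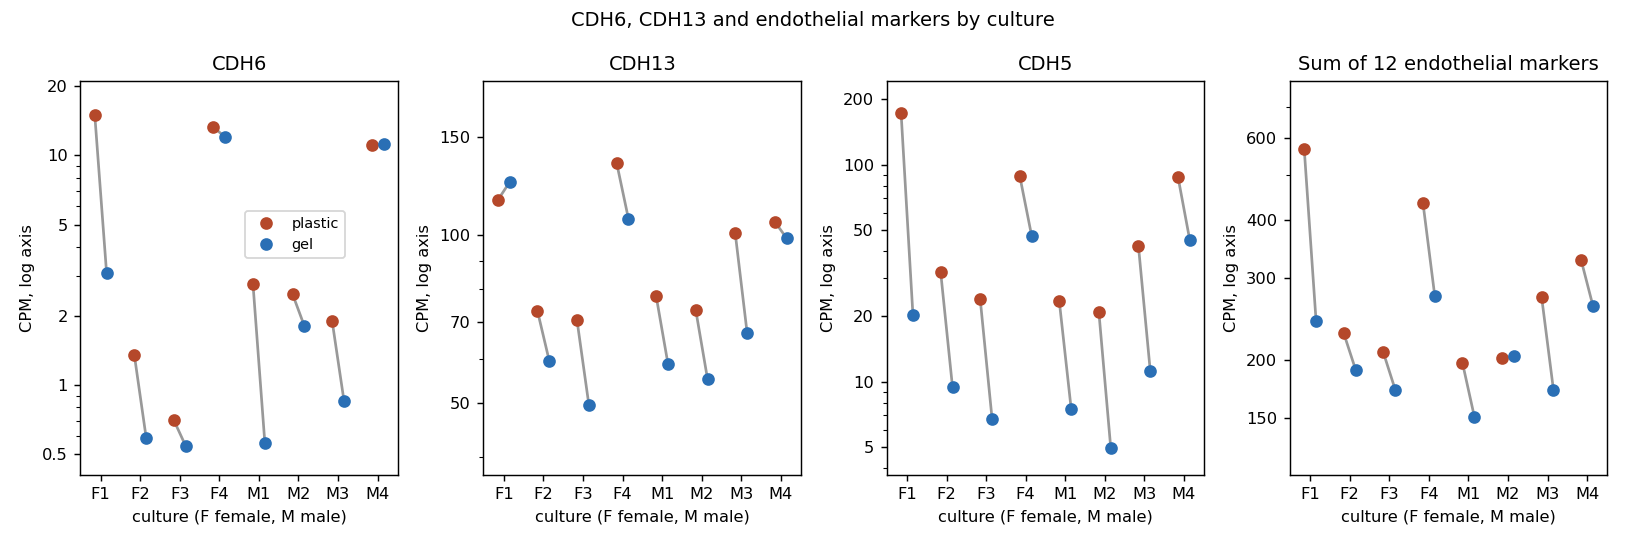
CPM on log axes of CDH6, CDH13, CDH5 and the sum of 12 endothelial markers in each of the 8 cultures (F female, M male, with the replicate number), plastic in red at the left and gel in blue at the right of each pair. F1, F4 and M4 hold the highest values in each panel on both surfaces, with CDH6 at 11.12 to 15.1 CPM on plastic and 3.06 to 11.99 CPM on gel.

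Of the catenins, CTNND1 encodes p120-catenin, which binds the cadherin tail near the membrane and keeps cadherin from being taken up (chromosome 2, 13143604 to 13209251). It had 300, 367, 361 and 325 CPM in female plastic 1 to 4, against 243, 257, 285 and 225 CPM in female gel. It had 364, 364, 383 and 324 CPM in male plastic, against 244, 303, 311 and 231 CPM in male gel. In CPM the groups did not overlap in either sex. By counts over library totals alone, without the TMM factors, they overlapped in both sexes. CTNND1 rose by 0.42 in female cells (SE 0.11, adjusted p = 0.0121) and by 0.40 in male cells (SE 0.11, adjusted p = 0.0158), that is 1.34-fold and 1.32-fold.

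CTNNA1 encodes alpha-E-catenin, the link from beta-catenin to actin filaments, which binds vinculin when it is pulled (chromosome 2, 140682776 to 140869828). It had 517, 548, 599 and 546 CPM in female plastic 1 to 4, against 458, 488, 479 and 474 CPM in female gel. It had 555, 558, 579 and 552 CPM in male plastic, against 453, 483, 459 and 473 CPM in male gel. The plastic libraries lay above the gel libraries in both sexes. CTNNA1 rose by 0.22 in female cells (SE 0.07, adjusted p = 0.0328) and by 0.27 in male cells (SE 0.07, adjusted p = 0.0113), 1.16-fold and 1.20-fold. The female call was lost with the replicate block (0.22, adjusted p = 0.057). It was also lost without any 1 of the 4 female gel libraries or without female plastic 2, 3 or 4, at adjusted p from 0.0504 to 0.108. The change then lay between 0.18 and 0.23. The within-group SD of CTNNA1 on the log2 scale, 0.05, was at the 0.131st percentile of tested genes, so that libraries of a group were close to each other.

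CTNNB1 encodes beta-catenin, which joins cadherin to alpha-catenin and is also the WNT coactivator (chromosome 13, 25163550 to 25208314). It had 517, 526, 522 and 416 CPM in female plastic 1 to 4, against 532, 559, 562 and 511 CPM in female gel. It had 500, 518, 536 and 479 CPM in male plastic, against 544, 479, 524 and 543 CPM in male gel. In CPM the groups overlapped in both sexes. By counts over library totals alone, without the TMM factors, plastic lay below gel without overlap in both sexes. Its surface difference was -0.13 in female cells (SE 0.09, 95% interval -0.31 to 0.06, adjusted p = 0.331) and -0.04 in male cells (SE 0.09, 95% interval -0.23 to 0.15, adjusted p = 0.785). Plastic was above gel at 0 of 4 culture numbers in female and at 2 of 4 in male cells. The 95% intervals exclude neither a fall nor a small rise, with upper ends at 0.06 in female and 0.15 in male cells.

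Genes listed as overlapping the 7 loci had at most 3.24 CPM in any library, apart from ULK4, which overlaps CTNNB1 at its end and reached 40.0 CPM. The strand setting of the counting is not given in the sources used here, so reads in such overlaps cannot be assigned to 1 strand.

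The second question was whether the sexes differed. On plastic 0 of the 7 genes were called between female and male cells (background 0.124%, with 0.0275% higher and 0.0964% lower in female cells), and on gel 0 of 7 (background 0.103%, with 0.00688% higher and 0.0964% lower), by edgeR, by DESeq2 and by limma-voom. At an unadjusted p under 0.05 the count was 0 of 7 on both surfaces as well. On plastic the differences, female over male, ran from -0.09 for CTNND1 to 0.73 for CDH6 (SE 1.09). On gel they ran from -0.36 for CDH11 (SE 0.18, 95% interval -0.75 to 0.02, adjusted p = 0.852) to 0.29 for CDH13 (SE 0.29). For CDH2 the difference was 0.15 on plastic (95% interval -0.20 to 0.49) and -0.08 on gel (95% interval -0.43 to 0.27). The female and male ranges overlapped for all 7 genes on both surfaces, where 2.85% of tested genes on plastic and 2.03% on gel had none. The difference of the surface changes was called for 0 of 7 genes and for 0 of all 14530 by edgeR, DESeq2 and limma-voom. At an unadjusted p under 0.05, edgeR gave 1 of the 7, CDH11, and 633 of all.

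Genes whose pattern lay nearest to a cadherin were found by the root mean square difference of log2 CPM, each centred on its own mean, over the 16 libraries and among 10296 other genes with at least 5 CPM on average. For CDH2 they were OSTF1 at 0.18, VCL at 0.20 and AKAP6 at 0.20, where the median gene lay at 1.07. VCL encodes vinculin, and it had a log2 change of 1.84 in female and 1.80 in male cells. For CDH11 they were FSTL1, LACC1 and SH3GLB1 (0.16, 0.16 and 0.17; median 0.44), and for CDH13 LYN, SYN1 and FLI1 (0.19, 0.21 and 0.21; median 0.51). For CDH6 the nearest genes lay farther off: LOC100519934 at 0.64, ADGRL4 at 0.81 and PODXL at 0.82, with a median of 1.68. ADGRL4, an adhesion receptor known from endothelium, had 41.7 CPM in female plastic 1 and 34.0 in female plastic 4, against 23.9 in female gel 1 and 22.0 in female gel 4. The 16 libraries share 2 surfaces, so a gene with a like surface change is near by that alone.

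Most other cadherins were too scarce to test. Of 19 further cadherin genes listed, 18 were in the table and 5 passed the filter. Of these 5, 1 was lower on plastic in each sex and 0 were higher. The one that fell was CDH4 (R-cadherin, of retina and brain), with 1.01 CPM in female plastic against 3.21 in female gel, a change of -1.66 (SE 0.34, adjusted p = 0.00179), and 1.20 CPM in male plastic against 3.17 in male gel, a change of -1.41 (SE 0.34, adjusted p = 0.00548). Its female call was lost without male 4, female 1 and female 4 (adjusted p = 0.0659). CDH23, a long cadherin of inner ear hair cells, was not called (-0.40 in female and -0.09 in male cells) at group means of 65.7 to 86.6 CPM, except in female cells without male gel 2 (adjusted p = 0.0282). Nor were CDH18 and CDH24, and CDH5 is described above. CDH1 did not exceed 0.05 CPM in any library.

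Among 9 tested catenins and relatives, 2 were higher and 1 lower on plastic in female cells, and 1 was higher and 2 were lower in male cells. With the replicate block 3 were lower in female cells. PKP2 (plakophilin 2, of desmosomes and heart junctions) had 10.4 CPM in female plastic against 34.5 in female gel, and 12.8 CPM in male plastic against 41.8 in male gel. It fell by 1.73 on the log2 scale in female cells (SE 0.24, adjusted p = 6.9e-05) and by 1.71 in male cells (SE 0.24, adjusted p = 6.51e-05). CTNND2, the p120 relative of neurons, rose by 1.91 in female cells (SE 0.51) and by 2.14 in male cells (SE 0.52), at 3.45 CPM in female plastic against 0.91 in female gel, and 3.16 CPM in male plastic against 0.69 in male gel. Its female call was lost without male 4, female 1 and female 4 (adjusted p = 0.069). PKP4 was called in female cells (0.42, adjusted p = 0.0246) and not in male cells (0.20, adjusted p = 0.274), and the female call was lost without female plastic 1 or 4 or female gel 2, 3 or 4, at adjusted p from 0.0553 to 0.0811, and without male 4, female 1 and female 4 (0.37, adjusted p = 0.187). JUP, which encodes plakoglobin, the near relative of beta-catenin that can take its place on cadherin tails, was not called (-0.14, SE 0.12, and 0.03, SE 0.12) at 166 CPM in female plastic, 183 in female gel, 162 in male plastic and 158 in male gel.

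Genes for proteins that tie junctions to actin rose more often than they fell. Of 19 tested, 9 rose and 1 fell in female cells, and 10 rose and 1 fell in male cells (median changes 0.36 and 0.36). The male count of 10 was 7 without male plastic 1 or 3 or male gel 2 or 4. As background for each gene list, 12.7% of all tested genes were higher and 11.3% lower in female cells. In male cells 12.9% were higher and 12.9% lower. VCL had 3961 CPM in female plastic against 1104 in female gel, and 4072 CPM in male plastic against 1166 in male gel. The actin crosslinkers ACTN1 and ACTN4 rose by 1.11 and 1.20 in female cells and by 1.26 and 1.34 in male cells. VASP, which extends actin filaments, rose by 0.97 and 1.20. As background, VCL, ACTN1 and VASP proteins are also found at focal adhesions, where cells hold on to the matrix. PLEKHA7, a p120-binding protein of apical junctions, fell by 1.27 in female and by 1.06 in male cells, and neither fall was called without male 4, female 1 and female 4 (-0.64, adjusted p = 0.23, and -0.74, adjusted p = 0.0601).

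**Figure D4:**
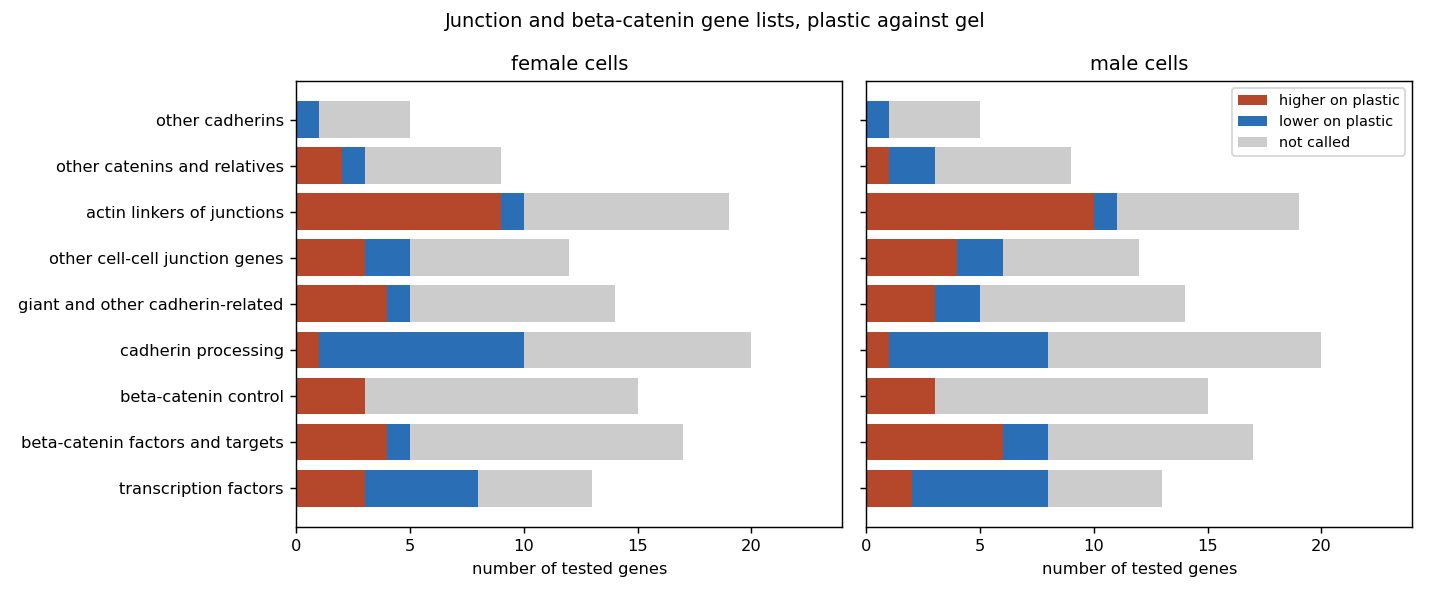
Number of tested genes in 9 lists of cadherin, junction and beta-catenin genes that were higher (red) or lower (blue) on plastic or not called (grey), in female cells at the left and male cells at the right. The actin linkers had 9 rises of 19 in female and 10 of 19 in male cells, and cadherin processing had 9 falls of 20 in female and 7 of 20 in male cells. The lists differ in length, and the transcription factors had 5 falls of 13 in female and 6 of 13 in male cells.

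Other junction genes moved both ways, with 3 of 12 higher and 2 lower in female cells and 4 higher and 2 lower in male cells. GJC1, a gap junction protein (connexin 45), rose by 1.295 in female and by 0.87 in male cells. JAM2, a junctional adhesion molecule, fell by 1.20 and by 1.31. The female JAM2 call was lost without female plastic 4 (adjusted p = 0.0558), and only 1 gene of the list was lower in male cells without male plastic 1, 3 or 4. Of 14 giant and other cadherin-related genes, 4 were higher and 1 lower in female cells, and 3 higher and 2 lower in male cells (6 and 2 with the replicate block). FAT4, a giant cadherin that pairs with Dachsous proteins, rose by 0.94 and 0.93, and PCDH18, a protocadherin, by 1.88 and 1.80. DCHS2, a Dachsous cadherin, had 9.82 CPM in female plastic against 40.1 in female gel and 8.76 in male plastic against 40.4 in male gel, and fell by 2.02 and by 2.20. CLSTN2, a calsyntenin, was not called in female cells (-1.26, adjusted p = 0.0742) and was lower in male cells (-1.48, adjusted p = 0.0373). With the replicate block it was called in both, at -1.35 in female cells (adjusted p = 5.3e-05) and -1.47 in male cells (adjusted p = 2.59e-05). Without the block, the male call was lost without any 1 male library other than male gel 1, at adjusted p from 0.052 to 0.106.

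Of 20 genes for cadherin processing and transport, 1 was higher and 9 were lower in female cells, and 1 was higher and 7 were lower in male cells. ADAM17, a sheddase of surface proteins, fell by 0.66 in female and by 0.85 in male cells. ADAM10, the main N-cadherin sheddase known from mouse fibroblasts, was named after its values were seen and was not called (-0.21, SE 0.13, and -0.29, SE 0.13). PTPRU, a receptor phosphatase, fell by 1.65 and by 1.63, and PCSK6, a convertase, rose by 0.70 and 0.81.

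Of 15 tested genes that control beta-catenin, 3 were higher and 0 lower in each sex, where 12.7% of all tested genes were higher in female and 12.9% in male cells. GSK3B, the kinase that marks beta-catenin for breakdown, rose by 0.83 in female cells (SE 0.10, adjusted p = 2.73e-05) and by 0.60 in male cells (SE 0.10, adjusted p = 0.00048). Without male plastic 3 only 1 gene of the list was higher in male cells, without male gel 2 there were 5 in each sex, and without male 4, female 1 and female 4 there was 1 in female cells. Among 17 partner factors and common targets, 4 were higher and 1 lower in female cells and 6 higher and 2 lower in male cells. Without female plastic 3 the female count of higher genes was 2. AXIN2, a feedback target of beta-catenin in many cell types, had 6.08 CPM in female plastic against 13.0 in female gel, and 7.26 CPM in male plastic against 15.1 in male gel. It fell by 1.09 (SE 0.13, adjusted p = 1.23e-05) and by 1.06 (SE 0.13, adjusted p = 1.45e-05). NKD1, another feedback target, had changes of 2.13 (SE 0.68, adjusted p = 0.032) and 2.32 (SE 0.69, adjusted p = 0.0206). The female NKD1 call was lost without female plastic 2 or 3 or female gel 1 or 4, at adjusted p from 0.0734 to 0.0843.

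Of 13 transcription factors known to act on cadherin genes or on mesenchymal identity, 3 were higher and 5 lower in female cells, and 2 higher and 6 lower in male cells. The count of 2 was 1 without male plastic 1, 2 or 3 or male gel 3 or 4, and the count of 3 was 5 without male gel 2. SNAI1, a repressor of E-cadherin, fell by 1.19 in female and by 1.00 in male cells, and TWIST2 by 1.04 and by 0.93. PRRX1, a factor of mesenchyme, fell by 0.77 and by 1.20, and SOX9 by 1.33 and by 1.56. FOXC2 rose by 0.96 and 1.23. ZEB1 was higher by 0.75 (adjusted p = 0.000806) and 0.41 (adjusted p = 0.0378), and the male call was lost without male plastic 1, 2 or 3 or male gel 3 or 4, at adjusted p from 0.0551 to 0.112. In male cells TWIST2 missed the threshold once male gel 4 was left out (adjusted p = 0.0528).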

How the data were processed

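The authors deposited 1 table of raw counts, with a row per gene and a column per library. Per the submitters' processing notes, reads were handled with FastQC 0.11.5, Trimmomatic 0.36, HISAT2 2.1.0, SAMtools 1.3.1 and featureCounts on Sscrofa11.1; the strand setting is not given in the sources used here. Entries with a number for a name (24 of 29576, 0.169% of counts) were left out. RefSeq symbols gave coordinates for all 7 genes. No protein or promoter sequence was used here.

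Genes were filtered with filterByExpr, scaled by TMM and tested with edgeR 4.0.16 (R 4.3.3). All 16 libraries were fitted with a mean per group and 12 residual degrees of freedom. The TMM factors were 0.896 to 0.984 on plastic and 1.05 to 1.12 on gel. By counts over library totals alone, only CDH2 stayed higher on plastic without overlap, and CTNNB1 was lower on plastic without overlap, in both sexes. Every alternative fit used TMM or a like scaling. SE is the absolute log2 change over the square root of F. For the nearest genes, 2 prior counts were added before log2 CPM was taken. The fit was tested on simulated data. Figures used matplotlib 3.10.9.

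The members and gene lists were chosen with earlier results of these data known. Named were all 7 members, any listed cadherin or catenin, and per list up to 4 genes per direction by adjusted p in male cells, of which a part is described and some are not reported here; ADAM10, PECAM1, ERG, VWF and KDR were named after their values were seen. Alternatives were RLE, DESeq2 1.42.0, limma-voom (limma 3.58.1), 2 filters, fits of 8 libraries, the replicate block and left-out libraries. Same-numbered plastic and gel libraries deviated together (correlations of 0.13 to 0.49 over genes). Among the 4 libraries of its sex on the other surface, each of the 16 was closest to that of its own number. Some lay closer to a library of the other sex: female gel 4 had 0.57 with male gel 4 and 0.29 with female plastic 4. From the comparison within each sex the numbers were taken to pair the surfaces. Those of female and male libraries (-0.20 to 0.57) do not pair. No library was a copy of another (chi-square per degree of freedom 9.93 to 81.9 over 24 pairs).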

Additional observations from a re-analysis of the deposited data

Results flagged for a closer look

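Within groups of 4, 28 sets of values of the 7 genes were examined for a library that lies far from the rest, and chance flags about 1 in 20. CDH6 in male plastic 4 (11.12 CPM) and in male gel 4 (11.2 CPM) stood apart from the other 3 libraries of its group, with gaps of 0.908 and 0.883 of the group's range. CTNNB1 in female plastic 4 (416 CPM) stood below the other 3, with a gap of 0.918 of the range. No cause was tested.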

How the results depend on the processing

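Over the alternatives and comparisons, 787 values of the 7 genes kept their direction and side of the threshold, 12 lost a call, 2 gained one and 32 changed sign, all 32 in differences that were not called. The surface changes of CDH2 and CTNND1 were called in both sexes under every alternative run, but those of CTNND1 came close to the threshold. With 1 library left out, the highest adjusted p of CTNND1 was 0.0497 in male and 0.0421 in female cells. That of CDH2 was 9.4e-06 and 3.2e-06. Without male 4, female 1 and female 4 the female adjusted p of CTNND1 was 0.0493. Without male 4, female 1 and female 4 on both surfaces, 2 of the 7 genes (CDH2 and CTNND1) and 1968 of all genes were called in female cells, which leaves 2 female cultures per surface. In the same setting the male surface difference of CTNNB1 was 0.019 and the female one of CDH18 0.16, the female over male differences on plastic were -1.20 for CDH6, -0.22 for CDH13, 0.033 for CTNNA1 and 0.027 for CTNNB1, those on gel -0.87 for CDH6 and -0.14 for CDH13, and the difference of surface changes for CDH6 was -0.34 (-0.10 with limma-voom). None of these was called, and the causes were not tested. The female call of CTNNA1 was also lost with no filter on low counts (adjusted p = 0.119) and with only the 8 female libraries (adjusted p = 0.0868). Leaving out 1 library at a time gave surface differences in male cells of -0.58 to 2.14 for CDH6, -0.081 to 0.26 for CDH11, -0.18 to 0.40 for CDH18, -0.099 to 0.080 for JUP and 0.26 to 0.57 for CDH13. In female cells it gave 0.36 to 2.44 for CDH6, 0.020 to 0.45 for CDH13, -1.11 to 0.21 for CDH18 and -0.066 to 0.17 for CTNNBIP1. It gave female over male differences on plastic of -0.050 to 0.27 for CDH13, -0.063 to 0.014 for CTNNA1 and -0.067 to 0.038 for CTNNB1, and on gel of -0.16 to 0.054 for CDH2 and -1.35 to 1.96 for CDH6. The difference of surface changes ran from -1.23 to 2.08 for CDH6, -0.36 to 0.095 for CDH13 and -0.050 to 0.092 for CTNND1.

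With the replicate block 4 of the 7 genes and 4319 of all genes were called in male cells, and 3 of the 7 and 4011 of all in female cells. The block changed no call of the 7 genes other than those of CDH13 and CTNNA1 given with their results. Between the sexes the numbers do not pair the libraries, and the block left 0 of the 7 called on either surface and gave -0.040 for CDH6 on gel. Counting depth limits CDH6, which had as few as 15 counts in a library.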
